A study of Mus musculus with 150 samples.

Results

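Chromosomes 3, 5 and 12 are 3 mouse autosomes whose median levels lay between no change and a whole-copy change in tumour T1. In tumours T7 and T9 their medians lay near no change. The members are all bins listed under these chromosome names among the deposited log2 ratios, with median lengths between 499 and 501 kb, and the values of a cell were set relative to the median bin of its chromosomes 1 to 19. They are 844 of the 5331 deposited bins, with 313 bins on chromosome 3, 297 on chromosome 5 and 234 on chromosome 12, and all 844 passed the filter on missing values. The 3 chromosomes were chosen by measured values, since the log2 ratios of these same cells had placed them at intermediate levels, so their levels are a description and no test is made on them.

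The study sequenced the genomic DNA of 150 single cells, 50 from each of 3 microdissected lung tumours called T1, T7 and T9, all from 1 animal labelled M3. The labels describe mice of a mixed C57BL/6 x Sv129 background with Trp53flox/flox and Rosa26 reporter alleles, in which a virus carrying a recombinase started the tumours, and the animal belongs to the 30 weeks KP group with the further label ND. AdSPC-Cre, which aims the recombinase at surfactant-producing lung epithelium, is the usual virus named, and AdCMV-FlpO is the other, without a statement of which one this animal received. All 3 tumours share the animal, the genotype and the time point, the source is labelled as lung tissue and AT2 cells, meaning alveolar type 2 cells, and there was no untreated or normal sample to set them against.

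Mouse chromosomes have their centromere at one end, so a chromosome lost or gained in a faulty mitosis changes along its whole length, whereas a break changes everything from the break to an end or to a second break. In low-coverage sequencing of a single cell, the number of reads in a bin follows the number of copies of that bin relative to the rest of the genome. A log2 ratio of a given size therefore stands for a different number of copies in a cell with a diploid and in a cell with a higher base number, and a doubling of the whole genome cannot be seen.

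After the filter on noise, T1 kept 47 cells, T7 kept 48 and T9 kept 50. T1 cells had between 19.2 and 161.4 Mb of autosomal sequence with a median of 91.7 Mb, T7 cells between 22.7 and 133.6 Mb with a median of 64.4 Mb, and T9 cells between 40.1 and 78.4 Mb with a median of 52.9 Mb. The noise between neighbouring bins was higher in T1 (median 0.191) than in T7 (0.146) or T9 (0.133), although T1 was sequenced most deeply. Every group is 1 tumour, so tumours are set side by side without a test, cells are not replicates, and the 95% interval beside a share (exact Clopper-Pearson) reflects counting error alone. For a count of 0, the share it allows is given as 3 cells of the total.

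In T1 the 3 chromosomes stood at nearly one shared level above the centre of the cell, and in T7 they lay at the centre. In T9 chromosomes 3, 5 and 12, each taken alone, lay within 0.10 of the centre in 33, 38 and 41 of 50 cells. All 3 did so in 24 of 50 T9 cells, and the other cells went up or down on at least 1 of them. A level is the median log2 ratio of the bins of a chromosome in a cell. Chromosome 3 of T1 cells had its lowest level at -0.18, its median at 0.18 and its highest at 0.32 (SD over cells 0.10). Chromosome 5 of T1 cells had its lowest at -0.15, its median at 0.18 and its highest at 0.51 (SD 0.12). Chromosome 12 of T1 cells had its lowest at -0.07, its median at 0.19 and its highest at 0.45 (SD 0.08). In words, the bulk of T1 cells formed a narrow band and a few cells lay below 0 or well above the band, largely different cells for each chromosome.

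T7 was the flattest tumour on all 3 chromosomes. Chromosome 3 of T7 cells ran from -0.07 to 0.12 with a median of -0.03 (SD 0.03). Chromosome 5 of T7 cells ran from -0.41 to 0.05 with a median of -0.03 (SD 0.07), and chromosome 12 from -0.07 to 0.11 with a median of -0.02 (SD 0.04). Ranked by the SD over cells among the 19 autosomes of T7, chromosome 3 came last and chromosome 12 came in place 17, so they were among the most uniform chromosomes of that tumour.

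T9 had its medians near 0 and long tails. Chromosome 3 of T9 cells ran from -0.39 to 0.27 with a median of 0.01 (SD 0.13). Chromosome 5 of T9 cells ran from -0.68 to 0.33 with a median of 0.02 (SD 0.15), and chromosome 12 from -0.83 to 0.19 with a median of 0.03 (SD 0.15). The tails of T9 were mostly downward, and the lowest cells of chromosomes 5 and 12 stood far from all other cells. The name intermediate thus described the median level of T1 but not that of T7 or T9, and bins of genomic DNA hold no marker by which the labelled cell type could be checked.

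**Figure D1:**
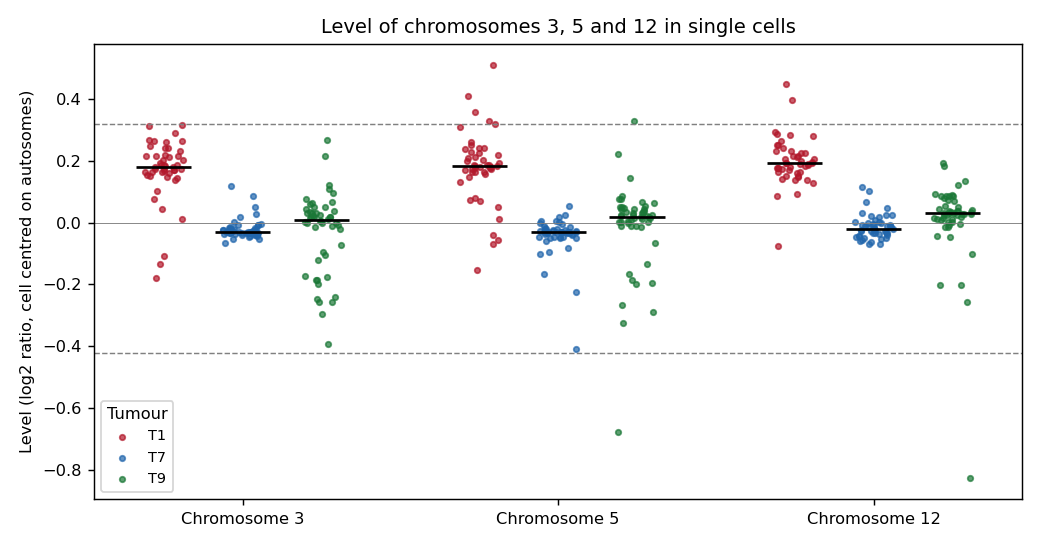
Level of chromosomes 3, 5 and 12 in each kept cell, as a log2 ratio on the vertical axis, with T1, T7 and T9 side by side for each chromosome, 1 point per cell, a black bar at the tumour median and dashed lines at the gain and loss thresholds of 0.32 and -0.42. T1 cells sit in a band with medians of 0.18, 0.18 and 0.19, T7 cells lie close to 0, and T9 cells lie close to 0 with a downward tail.

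The scatter of bins gives one part of the error of a level. The standard error of a level, from the scatter of bins about the segments of that cell, had a median of 0.0147, 0.0170 and 0.0176 on chromosomes 3, 5 and 12 in T1. The SD over T1 cells was 6.90, 6.96 and 4.40 times that error, and the SD over T9 cells was 12.8, 14.4 and 12.4 times it. In T7 the same ratio was 3.03, 5.80 and 2.86. That error leaves out amplification and the choice of zero point, so these ratios do not measure how much of the spread is due to copy number. Levels had correlations with the noise of the cell between -0.32 and 0.12 across tumours and chromosomes, and correlations with sequencing depth between -0.17 and 0.12.

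Few cells passed the thresholds for a whole-copy change. A chromosome was called gained at a level of at least 0.322, the log2 of 2.5 over 2 copies, and lost at -0.42 or lower, the value for 1.5 over 2 copies. Among 47 T1 cells, 4 passed the gain threshold on chromosome 5 (8.51%, 2.37 to 20.4), 2 on chromosome 12 (4.26%, 0.520 to 14.5) and 0 on chromosome 3, which allows a share of up to 6.38%, its highest cell standing at 0.317. Over all autosomes and cells of T1, 6.38% were called gained and 13.5% lost. Loss was called in 0 of 47 T1 cells on each of the 3 chromosomes.

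T7 had no cell past either threshold on chromosomes 3, 5 or 12, which allows up to 6.25% for each. Over all its autosomes and cells, 8.11% were called gained and 1.64% lost, most of the gains on chromosomes 2 and 6. In T9, cell 180117 was called lost on chromosome 5 at -0.68, cell 180116 lost on chromosome 12 at -0.83 and cell 180135 gained on chromosome 5 at 0.33. Over all autosomes and cells of T9, 2.42% were called gained and 5.26% lost.

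An intermediate level was one at least 0.10 away from 0 that did not reach a threshold. In T1, chromosome 3 was at an intermediate higher level in 41 of 47 cells (87.2%, 74.3 to 95.2), chromosome 5 in 34 (72.3%, 57.4 to 84.4) and chromosome 12 in 42 (89.4%, 76.9 to 96.5). Over all T1 autosomes and cells, 36.8% had an intermediate higher level and 26.8% an intermediate lower level. The intermediate lower level was seen on chromosome 3 in 3 T1 cells, on chromosome 5 in 1 and on chromosome 12 in 0. The rule chose the chromosomes for these levels, so nothing is read from their excess over the background.

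In T7, an intermediate higher level was found on chromosome 3 in 1 of 48 cells and on chromosome 12 in 2, against 5.04% of all autosomes and cells. Chromosome 5 was at an intermediate lower level in 4 of 48 T7 cells (8.33%, 2.32 to 20.0), against 5.37% overall. In T9, chromosome 3 was at an intermediate lower level in 13 of 50 cells (26%, 14.6 to 40.3), chromosome 5 in 8 (16%, 7.17 to 29.1) and chromosome 12 in 4 (8%, 2.22 to 19.2), against 21.5% of all autosomes and cells. An intermediate higher level was found on chromosomes 3, 5 and 12 of T9 in 4, 2 and 4 cells, against 12.3% overall.

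The shared T1 level was not particular to these chromosomes. Chromosomes 2, 8 and 14 of T1 had medians between 0.16 and 0.19, and the median difference of chromosomes 3, 5 and 12 minus each of them lay between -0.02 and 0.03. Chromosomes 7, 10, 11, 15 and 16 of T1 had medians between -0.19 and -0.16, and the median difference of chromosomes 3, 5 and 12 minus each of these was between 0.33 and 0.39, positive in 43 to 47 of the 47 cells. Such differences do not depend on where a cell is centred.

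The remaining T1 autosomes lay on both sides of these levels. Chromosomes 3, 5 and 12 minus chromosome 18 gave median differences between -0.04 and -0.02, minus chromosome 17 between 0.04 and 0.05, and minus chromosome 13 between 0.04 and 0.11. The same difference was 0.23 to 0.24 for chromosome 1 and 0.29 to 0.30 for chromosome 19. Chromosomes 3, 5 and 12 lay below chromosome 6, the most gained autosome of T1, with median differences between -0.22 and -0.20. They lay above chromosome 9, which is low in T1, by a median of 0.76 to 0.77 and above chromosome 4 by 0.87 to 0.88, in 47 of 47 cells each. For scale, one more copy raises the log2 ratio by 0.58 on a base of 2 copies, by 0.42 on a base of 3 and by 0.32 on a base of 4.

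The zero point matters for the name intermediate in T1. When each cell was centred on its most frequent level in place of its median, the T1 medians of chromosomes 3, 5 and 12 became 0.08, 0.08 and 0.09, and the intermediate calls over the 3 chromosomes came to 65, against 121 with the median. In T7 and T9 the same change moved no median level of the 3 chromosomes beyond the SD over cells.

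**Figure D2:**
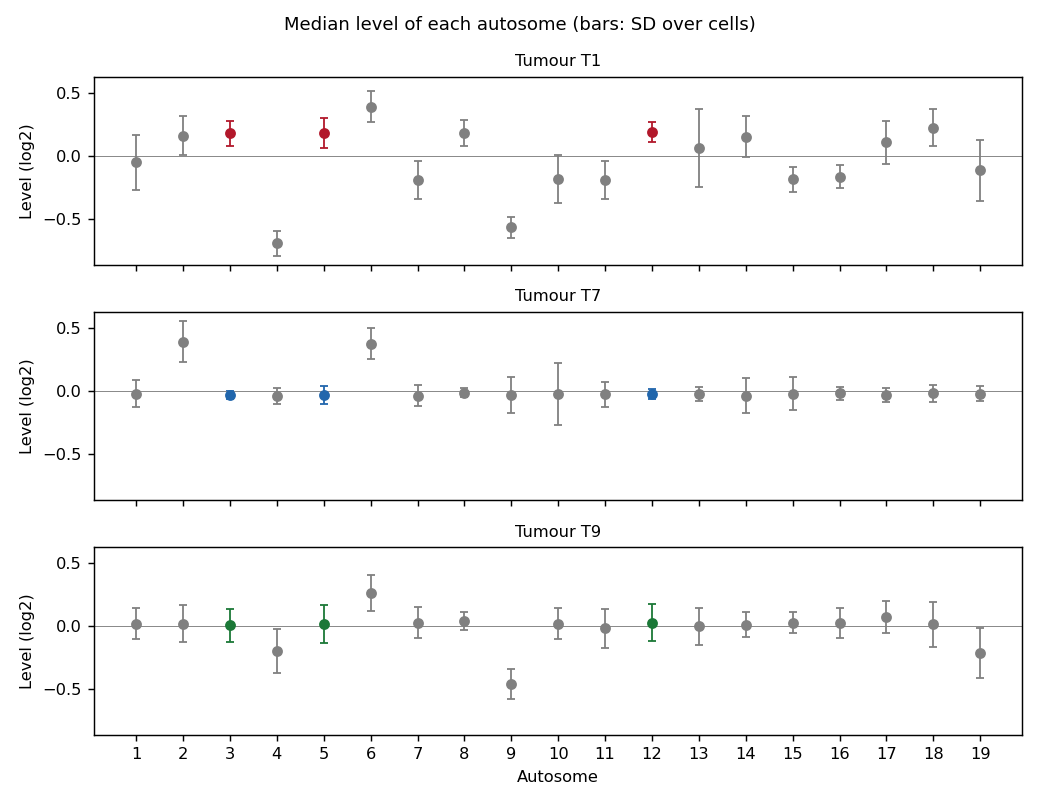
Median level over cells of each of the 19 autosomes, as a log2 ratio, in T1, T7 and T9 from top to bottom, with bars for the SD over cells, and chromosomes 3, 5 and 12 coloured. In T1 the 3 coloured chromosomes share a level with chromosomes 2, 8 and 14 and lie 0.33 to 0.39 above chromosomes 7, 10, 11, 15 and 16, and in T7 and T9 they lie near 0 with most other autosomes.

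Whether the chromosomes moved together was read from each cell. In T1, all 3 chromosomes were at 0.10 or above in 33 of 47 cells (70.2%, 55.1 to 82.7), 2 of them in 11 cells, 1 in 2 cells and none in 1 cell. The range between the highest and lowest of the 3 levels in a T1 cell had a median of 0.04, a lowest value of 0.003 and a highest of 0.44. Most T1 cells thus carried the 3 chromosomes at almost the same level, and where a cell departed it usually did so on 1 chromosome.

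The 3 T1 cells lowest on chromosome 3 show this. Cell 180006 had levels of -0.18, 0.24 and 0.22 on chromosomes 3, 5 and 12, and cell 180009 had -0.13, 0.23 and 0.22. Cell 180034 was built alike, with -0.11, 0.23 and 0.24. In these 3 cells only chromosome 3 of the set was low.

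The 3 T1 cells lowest on chromosome 5 were low on that chromosome alone. Cell 180040 had 0.22, -0.15 and 0.19 on chromosomes 3, 5 and 12. Cell 180010 had 0.26, -0.07 and 0.25, and cell 180037 had 0.29, -0.06 and 0.29. Each of these cells had chromosomes 3 and 12 near or above the T1 median.

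The high cells of T1 were of both kinds. Cell 180047 had 0.51 on chromosome 5 beside 0.27 on chromosome 3 and 0.19 on chromosome 12. Cell 180044 had 0.45 on chromosome 12 beside 0.16 and 0.17 on chromosomes 3 and 5. Cell 180033, in contrast, was high throughout, with 0.317, 0.356 and 0.287 on chromosomes 3, 5 and 12, and so was cell 180035 with 0.313, 0.308 and 0.264. In all, 6 T1 cells passed the gain threshold on 1 of the chromosomes and 0 cells on more, a count that rests on the threshold, since chromosome 3 of cell 180033 lay just under it. Cell 180016 had the widest range, with 0.21, -0.04 and 0.40, and cell 180042 had 0.04, 0.318 and -0.07.

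T7 cells were near 0 on all 3 chromosomes in 44 of 48 cells (91.7%, 80.02 to 97.7). The other 4 cells shared a lower chromosome 5. Cell 180071 had 0.12, -0.23 and 0.10 on chromosomes 3, 5 and 12, and cell 180087 had 0.08, -0.17 and 0.11. Cell 180053 had 0.05, -0.10 and 0.05, and cell 180094 had -0.01, -0.41 and -0.0022. Chromosomes 3 and 12 were thus slightly high in 3 of the 4 T7 cells that were low on chromosome 5.

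T9 cells were near 0 on all 3 chromosomes in 24 of 50 cells (48%, 33.7 to 62.6). At least 1 of the 3 chromosomes was at or below -0.10 in 21 cells, at least 2 of them in 6 cells, and 6 cells had 1 chromosome up and another down. Cell 180124 had -0.39 on chromosome 3 and 0.22 on chromosome 5, whereas cell 180109 had 0.27 on chromosome 3, -0.14 on chromosome 5 and -0.10 on chromosome 12. The median range of the 3 levels within a T9 cell was 0.16, wider than the 0.04 of T1 and the 0.02 of T7.

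Across cells, the correlation of the 3 levels was weak in T1 and T9. In T1, Pearson's r was -0.03 between chromosomes 3 and 5, 0.23 between 3 and 12 and -0.11 between 5 and 12, over 47 cells, with Spearman's rho of 0.17, 0.48 and 0.22. In T9, r was 0.02, -0.24 and -0.05 for the same pairs over 50 cells, with rho of -0.09, -0.28 and 0.20. Among all pairs of the 19 autosomes the medians of r were 0.01 in T1 and -0.03 in T9. The levels of a cell share its library, its depth and its centring, so these values describe the cells and carry no p.

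T7 differed for 1 pair. Chromosomes 3 and 12 of T7 had an r of 0.82 (rho 0.73) over 48 cells, the second highest among all pairs of autosomes, and 0.66 without the 2 cells farthest from the median of chromosome 3. Both chromosomes spanned a narrow range in T7, so the correlation concerns small shifts, and chromosome 3 had a similar r of 0.81 with chromosome 8. Chromosomes 3 and 5 of T7 had an r of -0.40, which became -0.05 without cells 180071 and 180087, and a rho of 0.19. Chromosomes 5 and 12 of T7 had an r of -0.19, which became 0.04 without cells 180071 and 180094.

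Centring had a visible effect on the T1 pairs. With each cell centred on its most frequent level, r in T1 was 0.31 between chromosomes 3 and 5, 0.53 between 3 and 12 and 0.33 between 5 and 12. An error of the zero point shifts all chromosomes of a cell alike, and its part in these values was not tested.

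**Figure D3:**
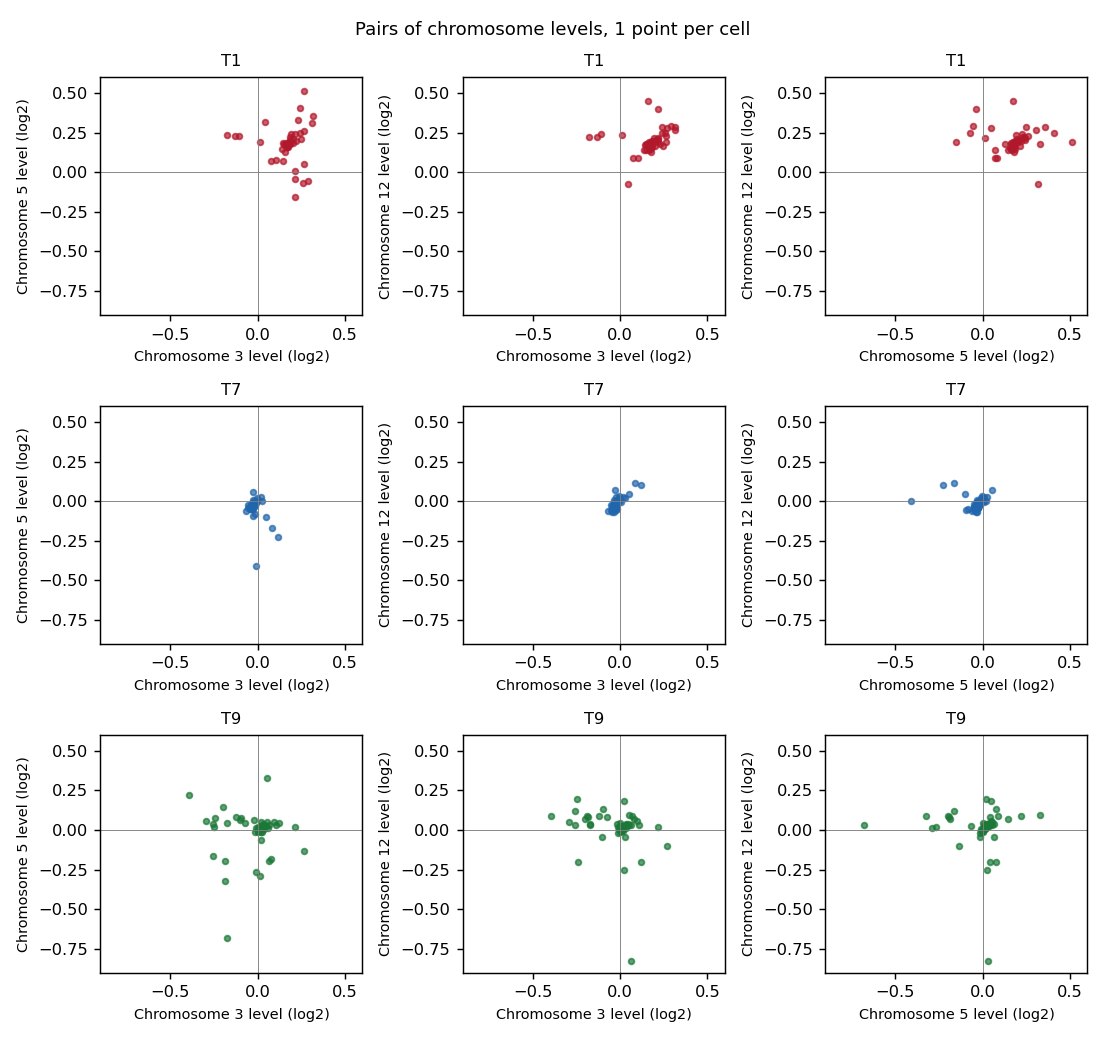
Levels of chromosomes 3 and 5, 3 and 12, and 5 and 12 against each other, both axes as log2 ratios, 1 point per cell, with T1, T7 and T9 from top to bottom. T1 cells cluster above 0 on both axes with single cells displaced along 1 axis, T7 cells cluster at 0, and T9 cells spread downward along either axis.

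Breakpoints were then sought in the tumour profile, the median of each bin over the cells of a tumour, divided into segments of at least 5 bins and 10 Mb. T1 had 9 breakpoints on the 3 chromosomes, T7 had 5 and T9 had 4. The scatter of bins about the chromosome was also larger in the T1 profile, with an SD of 0.16 on chromosome 3, 0.18 on chromosome 5 and 0.16 on chromosome 12, whereas the same SD was 0.05 to 0.07 in T7 and T9. Coordinates are on GRCm38.

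Chromosome 3 of T1 was divided into 4 segments. It began at 0.05 from 3000001 to 23693466, stood at 0.19 up to 87851614 and at -0.00070 up to 99863902 and ended at 0.24 up to 159939680. Its low segment is gene-dense, with 24.9 protein-coding genes per Mb against 6.26 over the chromosome. Its left edge lies next to Insrr, a receptor of the insulin receptor family, with Muc1, an epithelial mucin, on the low side. Its right edge lies between Notch2, a Notch receptor, and Vtcn1, an immune checkpoint ligand.

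Breaks of single T1 cells matched these edges in part. An upward break within 5 Mb of 23693467 was found in 10 of 47 T1 cells (21.3%, 10.7 to 35.7), and an upward break near 99863903 in 17 (36.2%, 22.7 to 51.5). An upward T1 break lay that close to a bin in 5.54% of all pairs of autosomal bin and cell. A downward break near 87851615 was found in 20 T1 cells (42.6%, 28.3 to 57.8), against a background of 4.02%. The edges were not limited to T1. Near 87851615, 6 of 48 T7 cells and 2 of 50 T9 cells broke downward, against 2.69% and 5.15%. Upward breaks lay near 99863903 in 7 T7 and 3 T9 cells, and near 23693467 in 4 and 2, against 2.57% and 3.72%. These places were chosen from the median profile of the T1 cells, which favours matches in T1. Nothing is thus read from counts above the background. Neither edge of the low segment was found when bins of low weight were left out or when ratios were rebuilt from depth. Rebuilt ratios set each bin against the middle of the 3 tumour profiles, so features alike in all 3 tumours cancel. From depth the 4 segments stood at -0.13, 0.10, 0.16 and 0.19, so the third was then above the second and the drop at 87851615 turned direction.

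Chromosome 5 of T1 was likewise divided into 4 segments. It began at 0.17 up to 92089503, stood at 0.04 up to 111036892, at 0.36 up to 121112190 and ended at 0.19 up to 151734684. The first break lies between Btc, a ligand of the EGF receptor, and Cxcl9, an interferon-induced chemokine. The second lies next to Chek2, a DNA damage checkpoint kinase. The third lies between Oas1a, an antiviral oligoadenylate synthetase, and Ptpn11, the phosphatase SHP2.

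Of these, the upward break at 111036893 was matched by 17 of 47 T1 cells (36.2%, 22.7 to 51.5), against 3 of 48 T7 cells and 3 of 50 T9 cells. The place was chosen from the T1 profile, so nothing is read from the higher T1 count. The downward breaks at 92089504 and 121112191 were matched by 7 and 6 T1 cells. The upward break at 111036893 was found again in 7 of 7 alternative settings, whereas the one at 92089504 was found in 3 of 7. From depth the 4 segments of chromosome 5 stood at 0.10, 0.23, 0.82 and 0.54, so the step at 92089504 ran upward there. The 2 distal segments then had higher log2 ratios than the 0.36 and 0.19 of the deposited profile.

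The drop at the start of the second chromosome 5 segment was common to the 3 tumours. A run of bins from 94138336 to 95629384 was lower than its chromosome by over 0.3 in all 3 tumour profiles, and over these 3 bins T1 had a median of -0.55, T7 of -0.41 and T9 of -0.33. No bin of chromosomes 3 or 12 departed that far in all 3 profiles. Near this run T7 had a downward break at 93088920 and T9 one at 92589212, and with such shared bins left out, the breaks there were not found in T1, T7 or T9. The 3 tumours share the animal.

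Chromosome 12 of T1 was divided into 4 segments as well. It began at 0.07 up to 25038399, stood at 0.29 up to 42074691, at 0.17 up to 88748960 and at 0.27 up to 120029022. The upward break at 25038400 lies next to Id2, an inhibitor of basic helix-loop-helix factors, and 12.1 Mb after Mycn, a MYC family oncogene, which is on the low side. It was matched by 30 of 47 T1 cells (63.8%, 48.5 to 77.3), the highest count of any of the 9, against 6 of 48 T7 cells and 4 of 50 T9 cells. The place was chosen from the T1 profile, and these counts hold upward breaks only. The place was not limited to T1. The largest step of chromosome 12, of any size, also lay near it in many T7 cells and several T9 cells and ran both ways. In T7 it was, for example, 0.18 in cell 180061 and -0.12 in cell 180081. In T9 it was, for example, 0.19 in cell 180146 and -0.17 in cell 180137. The breaks at 42074692 and 88748961, between Etv1, an ETS factor, and Nfkbia, the inhibitor of NF-kappaB, and between Tgfb3 and Tshr, were matched by 4 and 2 T1 cells.

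In the median profile of the deposited ratios, all 9 T1 breakpoints were smaller than a step of 1 copy on a base of 2, 3 or 4 copies. Their steps lay between -0.19 and 0.31, and with ratios rebuilt from depth, 3 of the 9 were found again, at 23693467 on chromosome 3 and at 111036893 and 121112191 on chromosome 5. The break at 25038400, which most T1 cells carried in the deposited ratios, was not among them. From depth the 4 segments of chromosome 12 stood at 0.19, 0.24, 0.13 and 0.34. At 111036893 on chromosome 5 the segments from depth went from 0.23 to 0.82, a larger step than in the deposited profile. From depth this step was also above the 0.58 of 1 more copy on a base of 2. Single cells could also step further there in the deposited ratios, as cell 180048 did from 0.15 to 0.55.

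T7 and T9 had shallow profile breaks only. T7 had 1 on chromosome 3 at 42167584, 4 on chromosome 5 at 26334470, 39654790, 93088920 and 105569712, and none on chromosome 12, with steps between -0.09 and 0.08. T9 had 1 on chromosome 3 at 121459190, 2 on chromosome 5 at 92589212 and 107557778, and 1 on chromosome 12 at 108112809, with steps between -0.05 and 0.07. Most of these were matched by few cells of their own tumour, from 0 to 7 of 48 in T7, where 2.57% of bins and cells have an upward and 2.69% a downward break nearby. In T9 the range was 3 to 6 of 50, where the background is 3.72% upward and 5.15% downward. These places too came from the profiles of the same cells, so nothing is read from counts above the background.

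**Figure D4:**
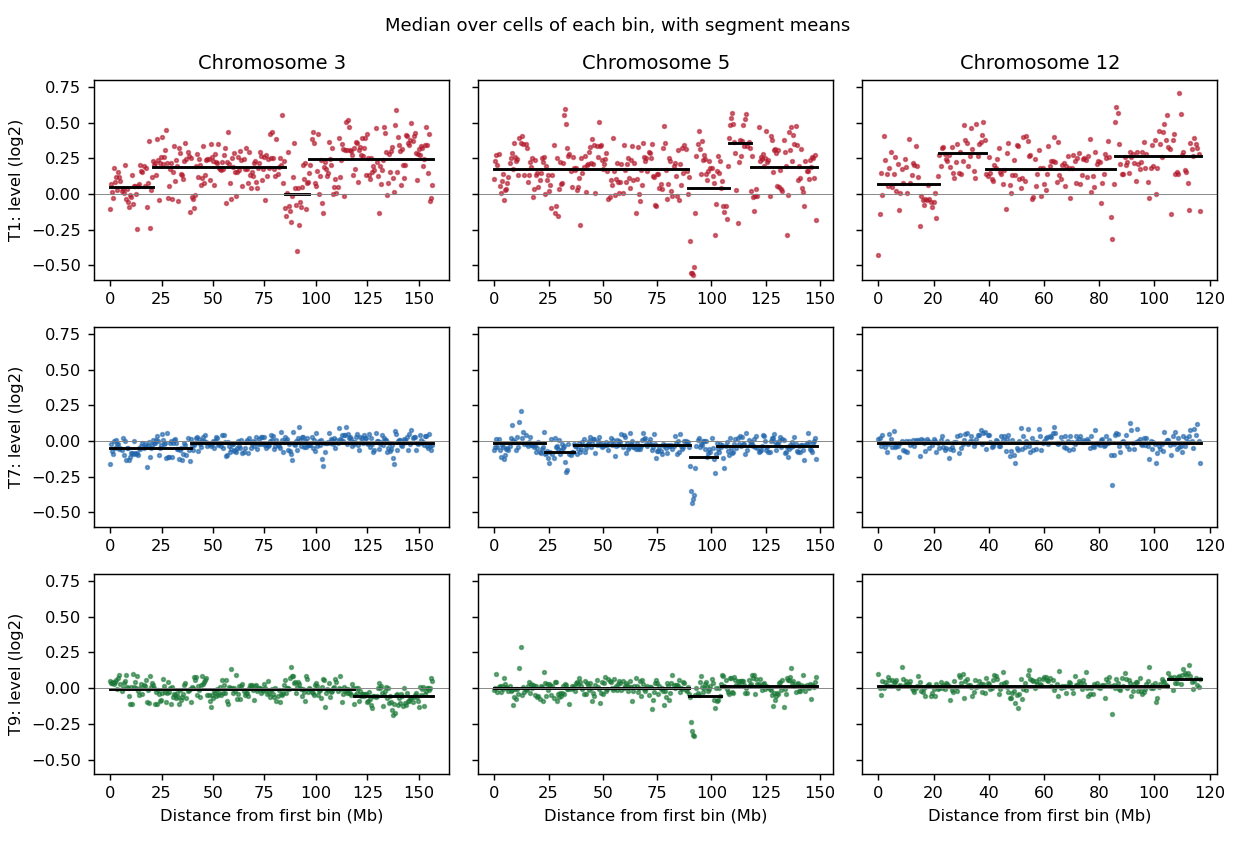
Median log2 ratio over cells of each bin on chromosomes 3, 5 and 12, against the distance from the first bin in Mb, with T1, T7 and T9 from top to bottom and black lines at the segment means. Most T1 bins lie above 0, namely 269 of 313 on chromosome 3, 255 of 297 on chromosome 5 and 206 of 234 on chromosome 12, and scatter widely with steps between -0.19 and 0.31, T7 and T9 bins lie along 0, and the short drop near 91 Mb from the first bin of chromosome 5 appears in all 3 tumours.

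The profiles of different tumours were alike in some places and opposite in others. Over the bins of chromosome 3, Spearman's rho was 0.48 between T1 and T7 and -0.46 between T1 and T9. Over chromosome 5 the values were 0.33 and -0.15, and over chromosome 12 they were 0.26 and -0.05. Between T7 and T9 rho was -0.07, 0.08 and 0.18. Neighbouring bins share levels and bin properties, so these are descriptions over 313, 297 and 234 bins. The number of genes in a bin had rho between -0.14 and 0.09 with the bin level in every tumour and chromosome.

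Single cells were also divided one by one. In T1, 5 of 47 cells had no break on chromosome 3, 20 none on chromosome 5 and 12 none on chromosome 12, where 71.1% of all autosomes in T1 cells had at least 1 break. In T7, 33, 37 and 36 of 48 cells had none on chromosomes 3, 5 and 12, where 40.4% of all autosomes in T7 cells had at least 1. In T9, 24, 32 and 35 of 50 cells had none, where 62% of all autosomes in T9 cells had at least 1. Chromosome 5 had fewer broken cells than chromosome 3 in each tumour.

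Segments past the thresholds were rarer and mostly gains in T1 and losses in T9. A gained segment of at least 10 Mb was found on chromosomes 3, 5 and 12 in 12, 13 and 9 of 47 T1 cells, against 19.6% of all autosomes in T1 cells. A lost segment was found in 1 T1 cell on chromosome 3 and in 0 on the other two, against 19.4%. In T9 a lost segment was found in 7, 4 and 1 of 50 cells, against 15.5%, and a gained one in 0, 1 and 0, against 16.3%. In T7 both kinds were found on chromosome 5 of a single cell, against 9.98% of autosomes with a gained and 4.28% with a lost segment.

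That T7 cell, 180094, carried a compound change. Its chromosome 5 stood at 0.36 up to 22379268, at -0.06 up to 42149793, at -0.50 up to 93088919 and at -0.61 to the end at 151734684. Its chromosomes 3 and 12 were at -0.01 and -0.0022. No other T7 cell had a called segment on these chromosomes.

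T9 held recurrent breaks, found after the values were seen by fitting the single largest step of each chromosome in each cell. A downward step of at least 0.3 on chromosome 3 was found in 6 of 50 T9 cells and on chromosome 5 in 4 of 50, where 23.7% of all autosomes in T9 cells had such a step. On chromosome 12 it was found in 0 cells. Positions were shared by at least 3 cells at 1 place on chromosome 3 and 1 place on chromosome 5, and at none on these chromosomes in T1 or T7. That count holds for steps of this size in the deposited ratios only. With ratios rebuilt from depth, cells of T1 and T7 also shared steps on these chromosomes, with counts given in the closing section. Several other autosomes had steps shared by far more cells, such as 44 T9 cells on chromosome 11.

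On chromosome 5, 4 T9 cells broke at one place. Cells 180131, 180139 and 180148 stepped down at 80096517 and cell 180117 at 80596225, which is the neighbouring bin. Cell 180139 stood at -0.01 before and -0.74 after the step, and cell 180148 at 0.02 before and -0.75 after it. Cell 180131 stood at -0.17 before and -0.60 after, and cell 180117 at -0.51 before and -1.05 after. The start of the chromosome was thus near 0 in 2 of the cells and reduced in the other two, while the distal part was reduced in all 4.

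The region from 80096517 to 151734684 covers 71.6 Mb with 810 protein-coding genes. It was at or under -0.42 in these 4 of 50 T9 cells (8%, 2.22 to 19.2), while the last bins of an autosome, taken as many at a time, were that low in 7.67% of autosomes and T9 cells. It was at or above 0.32 in T9 cells 180124 and 180135, against 6.11% of such autosome ends. In T7 it was that low in cell 180094 alone, against 2.43% of autosome ends, and that high in 0 cells, against 9.14%. In T1 it was that low in 0 of 47 cells, which allows up to 6.38%, against 15.1% of autosome ends, and that high in 5 cells (10.6%, 3.55 to 23.1), against 6.97%.

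The break on chromosome 5 lies between Hopx, a homeodomain-only factor of alveolar type 1 cells, 3.00 Mb before it, and Cxcl5, a neutrophil-attracting chemokine, 10.7 Mb after it. The reduced region holds the EGF family ligands Ereg, Areg, Epgn and Btc, the chemokine genes Cxcl9 and Cxcl10, the DNA repair genes Brca2 and Pms2, the checkpoint kinase gene Chek2 and Rac1, a small GTPase of the cytoskeleton. These genes were named here from the lists after the region was known. Each was in a lost segment in 4 of 50 T9 cells.

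On chromosome 3, 3 T9 cells broke near one another. Cell 180104 stepped down at 113527728, standing at -0.19 before and -0.54 after. Cell 180119 stepped down at 115510593, at -0.20 before and -0.60 after, and cell 180127 at 112877215, at -0.18 before and -0.52 after. The 3 cells had nearly the same level on each side of the break.

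The place on chromosome 3 was not limited to these cells or to T9 when steps of any size were counted. In T1 the largest step of chromosome 3 lay within 5 Mb of 113527728 and ran upward in 24 of 47 cells (51.1%, 36.1 to 65.9), by 0.10 to 0.19, against 5.08% of all pairs of autosomal bin and cell in T1. In T7 it did so in 6 of 48 cells (12.5%, 4.73 to 25.2), by 0.04 to 0.14, against 4.43%, and ran downward in 2. In T9 it ran downward in 9 of 50 cells (18%, 8.58 to 31.4), by as much as -0.40, against 4.8%, and upward in 4. The place was chosen from steps of T9 cells, so nothing is read from the T9 count above the background. Around 80096517 on chromosome 5, the largest step ran downward in 3 cells of T1, in 3 of T7 and in 6 of T9, and upward in none.

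The region from 113527728 to the end of chromosome 3 at 159939680 covers 46.4 Mb with 218 protein-coding genes. It was at or under -0.42 in 5 of 50 T9 cells (10%, 3.33 to 21.8), those 3 and cells 180107 and 180124, against 8.53% of autosome ends of that length in T9 cells. It was that low in 0 of 47 T1 cells and 0 of 48 T7 cells, which allow up to 6.38% and 6.25%, against 14.8% and 2.41% of autosome ends. No T9 or T7 cell was at or above 0.32 there, against 8.11% and 8.33%. In T1 the same region was at or above 0.32 in 11 cells (23.4%, 12.3 to 38.0), against 9.85% of autosome ends in T1 cells, with a median level of 0.27.

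The 5 T9 cells low on distal chromosome 3 and the 4 low on distal chromosome 5 were different cells. With so few cells, nothing is read from the lack of overlap. Cells 180117 and 180131, low on distal chromosome 5, had levels of -0.17 and -0.19 on chromosome 3 as a whole. Cell 180124, low on chromosome 3, was gained on chromosome 5 from 97120434 to the end at 0.38. Noise in the cells that broke ran from 0.12 to 0.16, within the T9 range of 0.111 to 0.209. In ratios rebuilt from the depth table, cells 180104, 180119 and 180127 broke in the same region of chromosome 3 together with cell 180138, and cells 180117, 180139 and 180148 broke in the same region of chromosome 5, so 1 cell joined the chromosome 3 set and 1 cell left the chromosome 5 set.

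**Figure D5:**
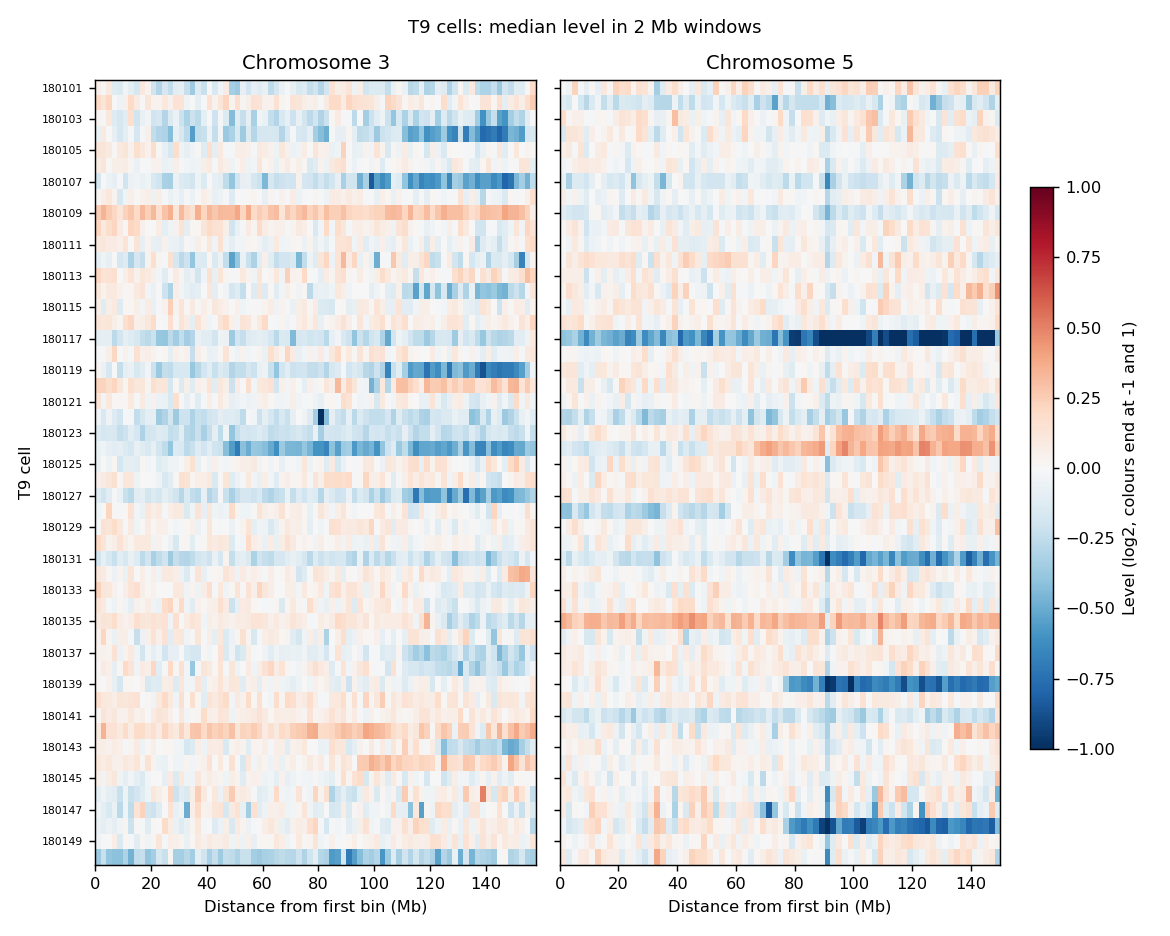
Level of chromosomes 3 and 5 in the 50 T9 cells, 1 row per cell in the order of their numbers, in windows of 2 Mb against the distance from the first bin in Mb, with blue for low and red for high log2 ratios. Cells 180117, 180131, 180139 and 180148 turn blue along the distal part of chromosome 5, cells 180104, 180107, 180119, 180124 and 180127 along distal chromosome 3, and a short drop crosses chromosome 5 in many cells.

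Chromosome 12 of T9 had no shared break. Cell 180116 was low along its whole length, in 7 segments between -1.11 and -0.57, and it was also the T9 cell with the highest levels on chromosomes 4, 6, 11, 15 and 16. Its noise was 0.128, close to the T9 median. Without this cell the lowest chromosome 12 level in T9 belonged to cell 180134 at -0.26, and no cell of T9 was called lost on chromosome 12. The SD of chromosome 12 over the remaining T9 cells was 0.08, against 0.15 with it, and r in T9 was -0.28 between chromosomes 3 and 12 and -0.02 between 5 and 12 without this cell.

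The 3 chromosomes carry many genes of growth, repair and immune pathways. Of 165 listed genes in 8 lists, 142 lie on them, 47 on chromosome 3, 61 on chromosome 5 and 34 on chromosome 12, and each took the segment level of its bin in every cell. Their tumour medians ran from 0.08 to 0.26 in T1 (median 0.17), from -0.04 to -0.02 in T7 (median -0.03) and from -0.01 to 0.03 in T9 (median 0.01). The bins of the 3 chromosomes had medians of 0.19, -0.02 and 0.00 in the same tumours, and all autosomal bins 0.01, -0.02 and 0.00. Genes on the same segment share its value, so neighbouring genes are not separate observations.

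A gene was counted where it lay in a gained segment in a share of at least 20% of cells. In T1 this held for 15 of 142 genes (10.6%), against 11.7% of all autosomal bins, and in T7 and T9 for 0 genes, against 13.5% and 7.07%. Lost segments reached 20% of cells for 0 genes in any tumour, against 20.1% of T1 bins, 2.52% of T7 bins and 4.2% of T9 bins. The share of listed genes in T1 was thus close to that of the autosomal bins at large. The T1 count was not stable to the processing, since it became 94 of 142 with ratios rebuilt from depth, 28 without bins of low weight, 26 with the median within 5 Mb as the level and 0 with each cell centred on its most frequent level.

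Growth factor genes and their receptors, 23 on these chromosomes, had a median of 0.17 in T1. Egf, the ligand of the EGF receptor on distal chromosome 3, had a T1 median of 0.25 (SD 0.11) and was gained in 10 of 47 T1 cells. Dlk1 and Jag2, ligands of the Notch pathway on distal chromosome 12, stood at 0.21 each, and Tshr, the thyrotropin receptor, at 0.20. No gene of the list other than Egf reached 20% of T1 cells.

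Of 19 genes of RAS and PI3K signalling, Rasal1, a RAS GTPase-activating protein on chromosome 5, was gained in 11 of 47 T1 cells. Akt1, the kinase downstream of PI3K, had a T1 median of 0.21 and was gained in 7 cells. Pik3cg, a catalytic subunit of PI3K, stood at 0.20 and was gained in 6 cells, while Sos2, a RAS exchange factor, and Map4k5, a kinase of the MAP4K family, stood at 0.20 and were gained in 4 cells each.

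Among 18 cell cycle and apoptosis genes, Fubp1, a DNA-binding regulator of Myc transcription, had a T1 median of 0.25 and was gained in 10 of 47 cells. Ccnk, the cyclin of CDK12 and CDK13, stood at 0.21, and Max, the partner of MYC, and Fos, an AP-1 subunit, at 0.20 each. Among 15 DNA repair genes, Rfc5, a subunit of the clamp loader, was gained in 12 T1 cells, and Xrcc3, Fancm, Rad51b and Mlh3, which act in recombination, crosslink and mismatch repair, stood between 0.20 and 0.21.

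Of 17 chromatin genes, Tet2, which oxidises methylated cytosine, had a T1 median of 0.25 and was gained in 10 of 47 cells. Setd3, a histidine methyltransferase of actin, and Yy1, a zinc-finger factor, stood at 0.21, and Arid4a, a chromatin-binding partner of RB, at 0.20. Of 16 lineage transcription factors, Tbx3, a T-box factor, was gained in 12 T1 cells and Lef1, a nuclear factor of Wnt signalling, in 10. Nkx2-1, the transcription factor that defines lung epithelium, stood at 0.20 in T1 and was gained in 4 cells, and Ahr and Etv1 stood at 0.20. Of the genes named for T1, Etv1 and Fancm turned to -0.0094 and -0.076 with ratios rebuilt from depth.

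Of 15 genes of plasticity and mesenchymal state, Ccn1, a matricellular protein, and Vcam1, an adhesion molecule, were gained in 11 and 10 of 47 T1 cells. Itgb8, an integrin subunit that activates TGF-beta, and Twist1, a mesenchymal transcription factor, stood at 0.21 and 0.20. Of 19 immune genes, 5 reached 20% of T1 cells, namely Gbp2 and Gbp3, interferon-induced GTPases, Nfkb1, a subunit of NF-kappaB, and the oligoadenylate synthetases Oas1a and Oas2, with 10 or 11 cells each. Traf3, an adaptor of immune receptors, stood at 0.21.

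The genes of distal chromosome 3 lay in gained segments in some T1 cells and in lost segments in some T9 cells. Egf, Lef1, Tet2, Nfkb1, Gbp2, Gbp3, Ccn1, Fubp1 and Vcam1 were each part of gained segments in 10 or 11 of 47 T1 cells. Each was part of lost segments in 5 of 50 T9 cells. Autosome ends as long as distal chromosome 3 were gained in 9.85% of cases in T1 and lost in 8.53% in T9. The T9 count was thus near that background. The count of genes gained in T1 depended on the centring, as given above, so nothing is read from the higher T1 share. These genes lie on the same chromosome end and largely share segments, so they are not separate observations. Whether the RNA of any of these genes followed its copy number was not analysed here.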

How the data were processed

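The submitters' processing notes name BWA 0.7.17 and GRCm38 for these single-cell DNA libraries. The deposited depth table holds a coverage signal per bin and cell, and the deposited log2 ratio table a log2 value per bin and cell. The deposited weight table holds a score per bin. How ratio and weight were made, and how cells were sorted and amplified, was not given in the sources used here. RNA sequencing of cells of these tumours was not used here. One engineered allele is not reported here.

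The chromosomes, lists, thresholds and settings were chosen with earlier results of these data known. Bins needed depth and a finite ratio in at least 80% of cells, which kept all 4806 autosomal bins. Noise was the scaled median absolute difference between neighbouring bins divided by the square root of 2, and cells above the median plus 3 scaled median absolute deviations (0.267) were left out, 3 in T1, 2 in T7 and 0 in T9. A median cell had a mean coverage of 0.0384 reads per base (T1), 0.0269 (T7) and 0.0221 (T9). Segments came from least-squares partitioning, in which a break cost 3 ln(n) noise variances for n bins. The largest single step came from a fit of 2 segments with at least 10 bins each. That fit and the correlations without 2 cells were added after the values were seen. Only the segmentation was tested, on steps planted in shuffled residuals of real cells, and the fit of 2 segments was not. Shuffling removes structure shared by neighbouring bins. Genes were placed with RefSeq's GRCm38.p6 annotation, in which 1 of the 165 symbols was not found and 22 lay on other chromosomes. Named genes were, per list, up to 4 with the largest absolute tumour median, the nearest listed gene on each side of a breakpoint, and those gained or lost in at least 20% of cells. Genes that only this last rule brought in, such as Rasal1, Rfc5, Tbx3 and Oas2, were named after their values were seen. No cells had identical columns, and no doublet caller was run. Alternatives were a ratio rebuilt from depth, other centring, filters, thresholds and penalties. The rebuilt ratio was the log2 depth of a bin, centred per cell, minus the median of the 3 tumour median profiles at that bin. Its reference thus comes from these same 3 tumours, and it is not an independent check. The tools were matplotlib 3.10.9, numba 0.67.0, scipy 1.17.1, pandas 2.3.3 and numpy 2.4.6 in Python 3.11.15.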

Additional observations from a re-analysis of the deposited data

How the results depend on the processing

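Of the 66 alternative values of the median levels, 65 moved by less than the SD over cells, and the other was chromosome 12 of T1, at 0.090 with each cell centred on its most frequent level. Counts below are summed over the 3 chromosomes. Intermediate calls in T1 (121) became 65 with that centring and 64 with the stricter cell filter, which kept 25 of 47 T1 cells, and those in T7 (7) became 17 with ratios rebuilt from depth and 3 with a bound of 0.15. Gain and loss calls in T1 (6) became 3 with the stricter cell filter, 1 with stricter thresholds and 54 with looser ones. Those in T7 (0) became 1 with the other centring and 1 with looser thresholds, and those in T9 (3) became 1 and 14 with stricter and looser thresholds.

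Correlations in T1 became 0.31, 0.53 and 0.33 (chromosomes 3 and 5, 3 and 12, 5 and 12) with the other centring and 0.17, 0.48 and 0.22 as Spearman's rho, and 0.22 (3 and 5) and 0.17 (5 and 12) with the stricter cell filter. In T7 chromosomes 3 and 5 turned from -0.40 to 0.11 with the other centring and to 0.19 as rho, with -0.17 from depth and -0.051 without 2 cells. Chromosomes 5 and 12 became 0.21, 0.36 and 0.042 in T7 (centring, rho, without 2 cells) and 0.20 in T9 as rho. The cause was not tested.

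Profile breakpoints depended most on the ratio. In T1 (9) they numbered 23 from depth, 5 without low-weight bins and 14 with a penalty of 1.5. In T7 (5) they numbered 13 from depth, 3 without low-weight bins, 1 without bins alike in all tumours and 3 with a penalty of 6. In T9 (4) they numbered 21, 2, 2 and 1 in the same settings, and 15 with a penalty of 1.5. Matching cells summed over breakpoints became 251 in T1 (113) with a penalty of 1.5, 20 within 10 Mb, 36 with a penalty of 1.5 and 30 from depth in T7 (11), and 30 within 10 Mb and 43 with a penalty of 1.5 in T9 (17). Cells in recurrent steps became 84 from depth and 13 with steps of at least 0.2 in T1 (0), 5 from depth in T7 (0) and 4 with steps of at least 0.4 in T9 (7).

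Genes counted as gained in T1 (15) became 26 as the median within 5 Mb, 94 from depth, 0 with the other centring and 28 without low-weight bins. Etv1 and Fancm in T1 turned to -0.0094 and -0.076 from depth. Replicate numbers are single cells and differ between tumours. No paired analysis was possible because the tumours share no replicate number. The within-cell errors given above cover the scatter of bins only, and a group of 1 tumour gives no spread between tumours.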
